A study of Mus musculus with 6 samples.

Results

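The 10 genes described here encode matricellular and adhesive glycoproteins: Fn1, Tgfbi, Postn, Sparc, Sparcl1, Thbs1, Thbs2, Tnc, Tnxb and Vcan. They were chosen by gene name, with earlier results of these data known. Each name matched 1 row among the 33919 genes of the table. The study sequenced RNA from mouse aorta, by its labels, in 3 libraries of genotype WT and 3 of genotype KO. All 6 carry the treatment label Ang II. Ang II is angiotensin II, the effector of the renin-angiotensin system, which constricts arteries and promotes thickening and fibrosis of their walls. Each group is described as 3 mice. The series title names OTUD1 of the endothelium, which removes ubiquitin from proteins, and SMAD3, which carries TGF-beta signals to the nucleus, so the comparison asks how genotype altered the aorta under Ang II. The sources used here do not give the allele behind KO, its driver, the strain, the age, or the dose and length of treatment. No group without Ang II is described. No label says which animal gave which library, so each p-value reflects only how far these libraries vary, which may be technical.

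Matricellular proteins are secreted into the extracellular matrix, where they act less as scaffold than as signals to cells. They bind integrins, syndecans and other receptors, hold or activate growth factors such as TGF-beta, and steer how collagen fibrils form. In the adult artery many of them are scarce and are induced when the wall is injured, stretched or remodelled. Fibronectin and the proteoglycan versican share this adhesive and regulatory role while also forming part of the matrix itself.

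The labels were checked against the data first. Otud1 had 8.83, 11.6 and 9.83 CPM (counts scaled to library size, with TMM factors) in the WT-labelled libraries and 14.5, 15.6 and 16.8 in the KO-labelled ones. It was thus higher under the KO label (log2 fold change 0.63, SE 0.12, adjusted p = 0.0039 by edgeR's quasi-likelihood test), and whether these reads lie outside a deleted part is not known. Groups are therefore called by their labels, and higher or lower always means KO-labelled relative to WT-labelled. Total counts ran from 62335027 to 71525109 per library. Mitochondrial genes took 55.7% to 57.8% of the counts in the WT-labelled libraries and 50.5% to 53.3% in the KO-labelled ones. The 7 nuclear copies of these genes took 15.4% to 16.0% and 14.3% to 14.7%. Neither share overlapped between the groups, so the make-up of the libraries differed by label. As to the tissue label, each of 8 smooth muscle markers had counts in at least 1 WT-labelled library, with a summed level of 543.3 to 550.6 CPM. In the same libraries 9 skeletal muscle markers summed to 19681 to 20175 CPM and 6 adipocyte markers to 2218 to 2281 CPM. Counts in 1 library are a low bar, so these values do not settle which tissue was taken. The third WT-labelled library stood apart on the second principal component (-64.0, against 37.3 and 28.1 for the others of its group). Without it 7 of the 10 genes were still lower and 1 higher, beside 1468 lower and 1703 higher of 17399 genes tested. Fn1 then stood at -0.64 and Tnc at -1.80 on the log2 scale.

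Of 16620 genes tested with edgeR, 10.5% were lower and 11.5% higher in the KO-labelled libraries at an adjusted p of 0.05. Among the 10 glycoprotein genes, chosen with earlier results of these data known, 7 were lower and 1 was higher, and 2 did not pass. The shares over all genes are given as background and do not test this choice. Thbs2 (4.73-fold), Thbs1 (4.23-fold), Tnc (3.59-fold) and Postn (2.46-fold) were lower, as were Tgfbi (1.81-fold), Sparc (1.795-fold) and Fn1 (1.63-fold). Tnxb, which encodes tenascin-X, rose 1.39-fold, and Sparcl1 and Vcan did not pass. The median log2 fold change was -0.85 over the 10 genes and -0.02 over all genes tested. All 3 values labelled KO lay below all 3 labelled WT in 7 of the 10 genes, against 19.4% of all genes tested. They lay above in 1 of the 10, against 19.3%. The share of higher genes among all genes called was 52.1% here. It was 75.4% in limma on log2(FPKM + 1), where the median gene stood at 0.11, and 50.7% and 50.8% once FPKM was scaled by median ratio or quantiles. Small changes therefore read differently on unscaled FPKM.

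**Figure D1:**
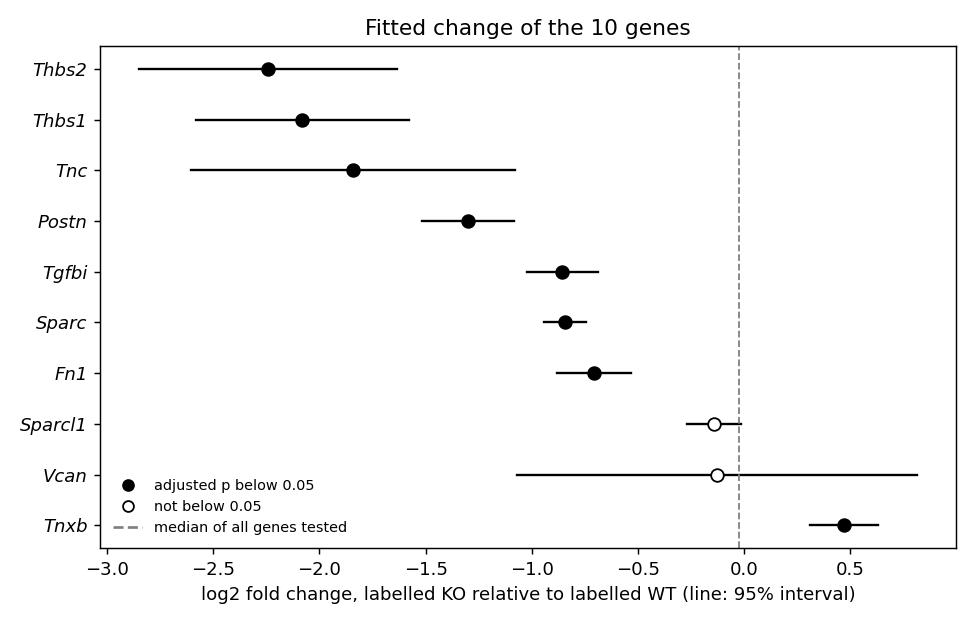
Fitted log2 fold change of each of the 10 genes (x axis, libraries labelled KO relative to those labelled WT), with 95% intervals as horizontal lines. Filled points passed an adjusted p of 0.05: 7 lie to the left of the dashed median of all genes, Tnxb (0.47) lies to the right, and the open points of Sparcl1 and Vcan are the 2 that did not pass.

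RefSeq promoter windows (build GRCm38.p6) were found for 7 of the 10 genes: Postn, Tnc, Tnxb, Thbs2, Sparc, Tgfbi and Vcan. Postn and Tnc each had 2 windows, at different starts. Both Tnc windows lie upstream of the span of Tnc in the deposited table. The Tnxb and Sparc windows lie inside the deposited spans of those genes. The 250 bases before a start are printed for 2 genes that fell and for the 1 that rose, so that members moving apart can be compared, and for Postn the window beside its start in the deposited table is shown. Capitals mark CAGAC, a short SMAD-binding element, or its reverse complement GTCTG, and TGACTCA, the AP-1 element, in either orientation.
Thbs2 (chr17:14694263-14694512, minus strand): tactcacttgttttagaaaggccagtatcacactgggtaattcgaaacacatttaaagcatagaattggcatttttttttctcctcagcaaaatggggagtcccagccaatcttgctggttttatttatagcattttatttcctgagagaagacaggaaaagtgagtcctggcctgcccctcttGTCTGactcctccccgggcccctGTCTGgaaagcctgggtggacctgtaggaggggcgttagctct
Postn (chr3:54360857-54361106, plus strand): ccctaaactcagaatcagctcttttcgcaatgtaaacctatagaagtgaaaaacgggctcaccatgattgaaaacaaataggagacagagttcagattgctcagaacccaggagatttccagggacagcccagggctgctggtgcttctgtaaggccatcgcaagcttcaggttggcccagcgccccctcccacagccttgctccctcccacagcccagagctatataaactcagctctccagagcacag
Tnxb (chr17:34670285-34670534, plus strand): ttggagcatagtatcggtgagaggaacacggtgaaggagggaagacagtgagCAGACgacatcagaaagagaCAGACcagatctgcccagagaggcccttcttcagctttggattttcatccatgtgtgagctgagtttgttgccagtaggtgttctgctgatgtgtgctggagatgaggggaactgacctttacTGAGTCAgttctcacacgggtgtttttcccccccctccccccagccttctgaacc
The SMAD element stood at 66 and 43 bases before the start in Thbs2, counted from its first base, and the printed Postn window held none. In windows not printed it stood at 239 and 85 bases in Tgfbi and at 35 in Sparc. The Postn window at the start further upstream held it at 191 bases. Of the Tnc windows, the one at the start further downstream held it at 70 bases and the other held none, and Vcan had none. Tnxb, the gene that rose, also held it, at 198 and 178 bases. At least 1 window of 6 of the 7 matched genes held it (6 of 9 windows), against 42.2% of all 32851 RefSeq windows of this length. The AP-1 element was found in Tnxb alone among these 7 genes, 55 bases before the start, and in 4.5% of all windows. A TEAD element searched in the same way, CATTCC, was in 0 of the 9 windows and in 12.6% of all windows. These matches describe the letters of the windows only.

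Fibronectin and the fasciclin-domain proteins came first, as adhesive proteins that cells grip through integrins. Fn1 (ENSMUSG00000026193, chromosome 1, 71585520 to 71653175, minus strand, GRCm38) had 49.8, 45.0 and 54.2 CPM in the WT-labelled libraries and 31.0, 30.0 and 30.4 in the KO-labelled ones. The groups did not overlap, and the values labelled KO lay within a narrow band (SD 0.536, n = 3). The log2 fold change was -0.71 (SE 0.079, adjusted p = 9.6e-05, edgeR).

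Tgfbi encodes a TGF-beta-induced protein that binds collagen and integrins (ENSMUSG00000035493, chromosome 13, 56609523 to 56639562, plus strand). It had 37.5, 37.2 and 38.0 CPM in the WT-labelled libraries and 20.1, 22.1 and 20.1 in the KO-labelled ones, so the groups stood clearly apart. It fell by 0.86 on the log2 scale (SE 0.076, adjusted p = 1.8e-05, edgeR). Postn encodes periostin, its closest relative in domain build, which promotes collagen crosslinking in tendon, periosteum and scarring tissue (ENSMUSG00000027750, chromosome 3, 54361109 to 54391037, plus strand). Its values were 28.1, 32.9 and 32.8 CPM under the WT label and 11.9, 13.5 and 12.7 under the KO label. The lowest library labelled WT was 2.08 times the highest labelled KO, and the log2 fold change was -1.30 (SE 0.098, adjusted p = 5.2e-06, edgeR). The ratio of Postn to Tgfbi per gene length was 0.324, 0.383 and 0.374 in the WT-labelled libraries and 0.256, 0.265 and 0.272 in the KO-labelled ones. The groups did not overlap, and the mean log2 ratio differed by -0.44. The exact permutation test gave p = 0.1, the smallest that 3 against 3 allows, and 0.167 adjusted over the 5 pairs of genes compared in this way.

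**Figure D2:**
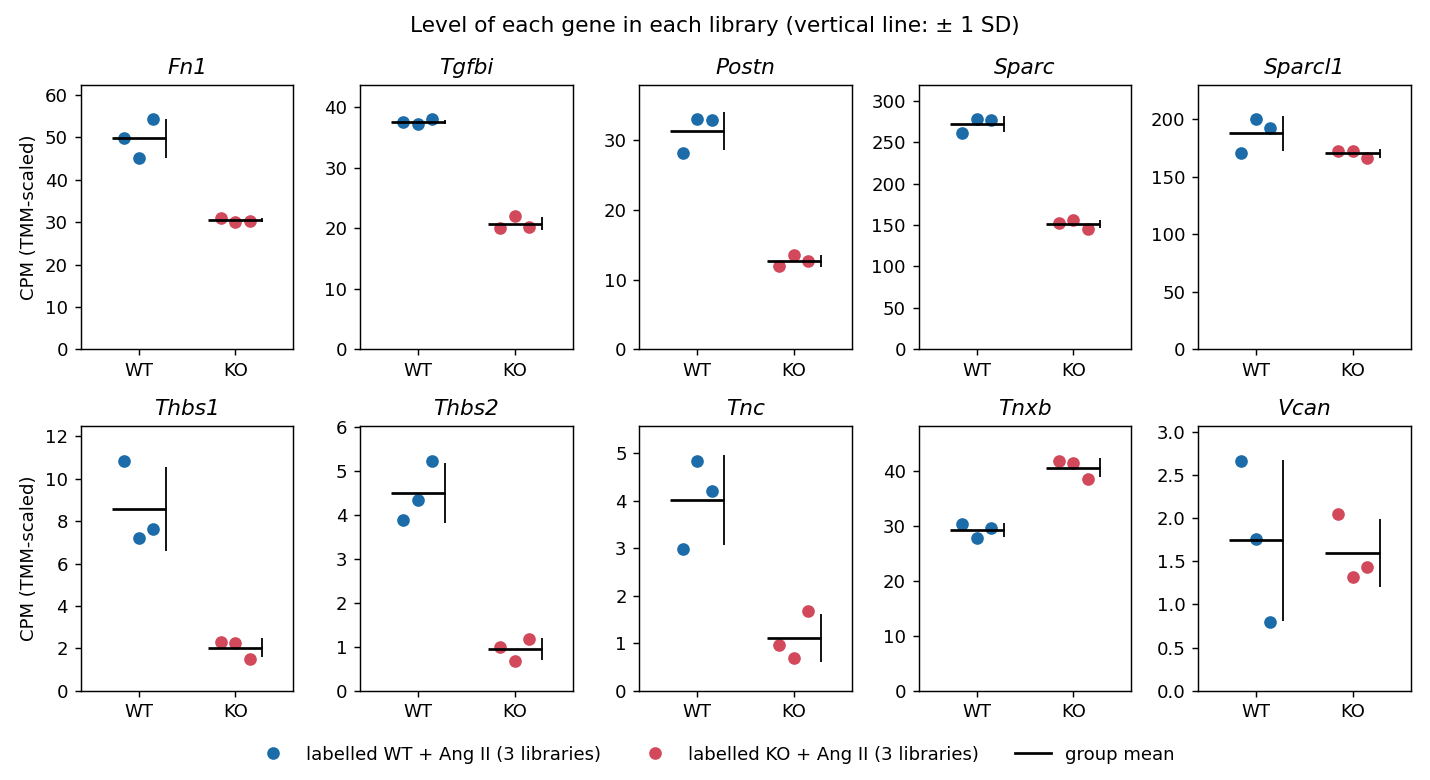
CPM of each gene (y axis, from 0) in each of the 6 libraries, with the group mean as a horizontal line and 1 SD as a vertical line. In 8 panels the points of the groups do not overlap, with Tnxb the gene higher under the KO label, and they overlap for Sparcl1 and Vcan.

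In the SPARC family 1 gene fell and 1 did not pass. Sparc encodes a collagen-binding glycoprotein, also called osteonectin, that helps collagen to be secreted and assembled (ENSMUSG00000018593, chromosome 11, 55394500 to 55423183, minus strand). Under the WT label it had the highest CPM of the 10 genes, with 261.2, 277.3 and 276.9 CPM in the WT-labelled libraries and 152.7, 155.9 and 145.6 in the KO-labelled ones. No value of one group came near the other, and the gene fell by 0.84 on the log2 scale (SE 0.045, adjusted p = 3.6e-07, edgeR). Sparcl1 encodes hevin, a close relative made by vascular and perivascular cells among others (ENSMUSG00000029309, chromosome 5, 104079111 to 104113733, minus strand). It had 170.3, 199.5 and 192.3 CPM in the WT-labelled libraries and 172.2, 172.4 and 165.8 in the KO-labelled ones, and the first library labelled WT lay among the libraries labelled KO.

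The log2 fold change of Sparcl1 was -0.14 (95% interval -0.27 to -0.01), with an unadjusted p of 0.036 and an adjusted p of 0.12 (edgeR). This call depended on the setting. DESeq2 gave an adjusted p of 0.014, edgeR without the first library labelled WT gave -0.20 and 0.022, and the deposited FPKM gave a change of 0.01 (adjusted p = 0.91, limma). The ratio of Sparc to Sparcl1 per gene length was 1.19, 1.08 and 1.12 in the WT-labelled libraries and 0.688, 0.701 and 0.681 in the KO-labelled ones. Sparc was thus the higher of the pair in every library labelled WT and Sparcl1 in every library labelled KO. The difference of -0.71 on the log2 scale had an exact permutation p of 0.1, 0.167 adjusted over the 5 pairs.

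Both thrombospondins fell. Thbs1 encodes thrombospondin-1, which can activate latent TGF-beta and restrains new vessel growth (ENSMUSG00000040152, chromosome 2, 118111876 to 118127133, plus strand). It had 10.9, 7.20 and 7.64 CPM in the WT-labelled libraries and 2.29, 2.27 and 1.52 in the KO-labelled ones. The first library labelled WT was the highest, yet the lowest of that group was still 3.15 times the highest labelled KO. Its log2 fold change was -2.08 (SE 0.23, adjusted p = 8.0e-05, edgeR), and 2.59% of all genes tested had a lower one. Thbs2 encodes thrombospondin-2, which restrains angiogenesis and shapes collagen fibrils (ENSMUSG00000023885, chromosome 17, 14665500 to 14694235, minus strand). With 3.89, 4.34 and 5.23 CPM against 0.997, 0.670 and 1.17, it fell by 2.24 on the log2 scale (SE 0.27, adjusted p = 0.00018, edgeR). The order of the pair is not settled: without the third WT-labelled library Thbs1 stood at -2.16 and Thbs2 at -2.12, and without the second KO-labelled one at -2.17 and -2.05. In limma on log2(FPKM + 1), which shrinks the change of low genes, Thbs2 stood at -0.46 and Postn at -0.77. Deposited counts of Thbs2 were 261 to 327 under the WT label and 49 to 85 under the KO label.

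The ratio of Thbs1 to Thbs2 overlapped between the groups, at 3.24, 1.93 and 1.70 against 2.67, 3.93 and 1.503, and its mean log2 difference of 0.19 had an exact permutation p of 0.8. That difference was -0.13 without the second KO-labelled library. Platelets carry much thrombospondin-1, and their markers were scarce here, at 7.59 to 10.1 CPM summed over 6 genes in the WT-labelled libraries and 6.95 to 9.75 in the KO-labelled ones. Treml1 had no count in the WT-labelled libraries. Of the 4 platelet markers tested, 0 passed in edgeR and 0 had an unadjusted p below 0.05. DESeq2 and limma on FPKM also called 0. Whether platelets had a part in the change of Thbs1 was not tested.

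The tenascins moved in opposite directions. Tnc encodes tenascin-C, which is scarce in resting adult tissue apart from tendon and appears where tissue is injured or strained (ENSMUSG00000028364, chromosome 4, 63959785 to 64020725, minus strand). It had 2.98, 4.84 and 4.20 CPM in the WT-labelled libraries and 0.969, 0.698 and 1.68 in the KO-labelled ones. The groups did not overlap, although the third library labelled KO stood above its group, and the gene fell by 1.84 on the log2 scale (SE 0.35, adjusted p = 0.0031, edgeR). Tnxb encodes tenascin-X, which ties collagen fibrils together in loose connective tissue and whose loss in people causes a form of Ehlers-Danlos syndrome (ENSMUSG00000033327, chromosome 17, 34660457 to 34719815, plus strand). Its values of 30.4, 27.9 and 29.6 CPM in the WT-labelled libraries were all below those labelled KO, at 41.9, 41.5 and 38.6. The gene rose by 0.47 on the log2 scale (SE 0.073, adjusted p = 0.00089, edgeR), and it stayed higher in each of the 18 other fits, between 0.30 and 0.60.

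Tnc and Tnxb parted by 2.39 on the log2 scale, the widest gap among the 5 pairs compared. The ratio of Tnc to Tnxb per gene length was 0.169, 0.300 and 0.245 in the WT-labelled libraries and 0.0400, 0.0291 and 0.0752 in the KO-labelled ones. The exact permutation p was 0.1, the smallest possible, and 0.167 adjusted over the 5 pairs. The deposited span of Tnxb begins 5' of the GENCODE M21 start at 34670535, and the length that its FPKM implies was 1.21 to 1.23 times the GENCODE exonic length of 12209 bases. For the other 9 genes this factor was 1.10 to 1.12, so the FPKM of Tnxb is set low beside theirs. The change of the gene does not depend on that length.

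Vcan encodes versican, a large proteoglycan that binds hyaluronan and swells the matrix between smooth muscle cells (ENSMUSG00000021614, chromosome 13, 89655312 to 89742509, minus strand). It was scarce, with 2.67, 1.76 and 0.799 CPM in the WT-labelled libraries and 2.05, 1.31 and 1.43 in the KO-labelled ones. The libraries labelled WT alone spanned the whole range of both groups, with a coefficient of variation of 53.6%. The log2 fold change was -0.13 with a 95% interval from -1.07 to 0.82 (adjusted p = 0.88, edgeR), so the interval spans both directions and no change was detectable at this depth. Without the first library labelled WT the change was 0.32. A gene on the opposite strand, Gm4117, overlaps Vcan and had 0 to 39 deposited counts per library. The largest share was 42.0% of the Vcan count, in the third WT-labelled library (21 against 50 counts). No strand setting of the counting is stated, so reads of the pair cannot be told apart. The ratio of Fn1 to Vcan per gene length overlapped between the groups, at 23.2, 31.7 and 84.2 against 18.8, 28.4 and 26.3. Its log2 difference of -0.71 had an exact permutation p of 0.4 (0.5 adjusted over the 5 pairs) and was -0.17 without the third WT-labelled library. The annotated neighbours that overlap Fn1, Tnc, Tnxb and Sparcl1 had at most 0.971% of the member's count in any library, as far as the table lists them.

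Levels between genes were compared as deposited FPKM, which divides by gene length. In the libraries labelled WT the order of mean FPKM was Sparc (61.7 ± 3.80, SD, n = 3), Sparcl1 (54.8 ± 4.88), Tgfbi (8.56 ± 0.493), Fn1 (3.66 ± 0.510), Postn (3.08 ± 0.324), Tnxb (1.87 ± 0.150), Thbs1 (1.21 ± 0.284), Thbs2 (0.551 ± 0.107), Tnc (0.442 ± 0.1001) and Vcan (0.102 ± 0.0538). Neighbours whose ranges overlapped were Sparc and Sparcl1, Fn1 and Postn, and Thbs2 and Tnc. Under the KO label the order became Sparcl1 (55.3 ± 2.97), Sparc (38.1 ± 2.28), Tgfbi (5.24 ± 0.288), Tnxb (2.88 ± 0.217), Fn1 (2.48 ± 0.130), Postn (1.39 ± 0.0670), Thbs1 (0.319 ± 0.0766), Tnc (0.135 ± 0.0589), Thbs2 (0.127 ± 0.0335) and Vcan (0.105 ± 0.0302). There the last 3 genes could not be ordered, since Tnc and Thbs2 overlapped and so did Thbs2 and Vcan. Tnxb moved from the sixth place to the fourth, and Sparcl1 and Sparc changed places.

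**Figure D3:**
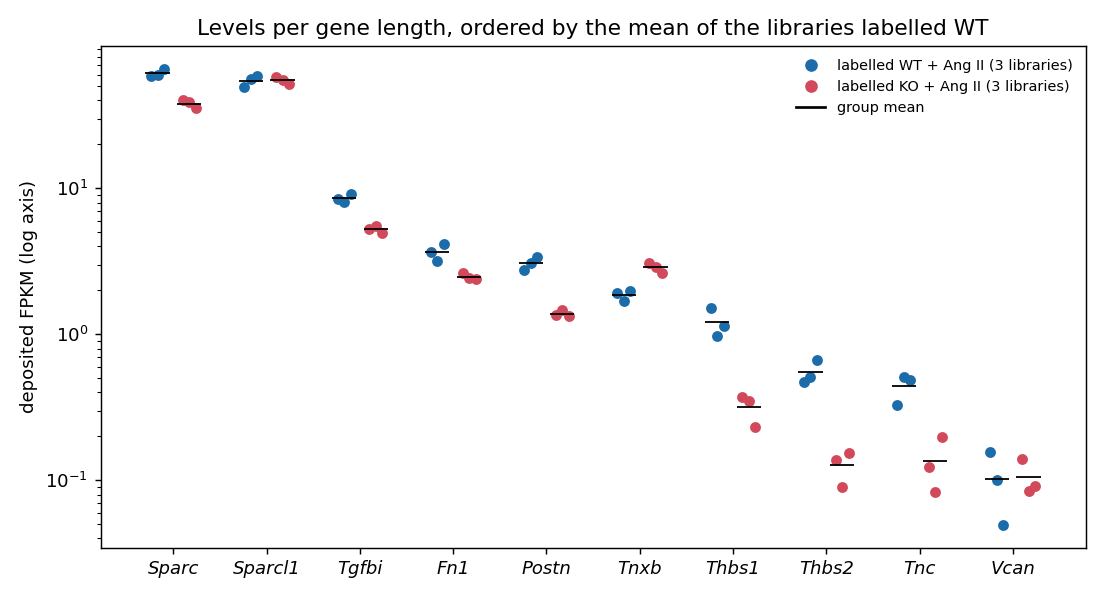
Deposited FPKM of each gene in each library (y axis, log scale), genes ordered by the mean of the libraries labelled WT. Sparc and Sparcl1 stand far above the other 8 genes in both groups, and Tnxb is the gene whose 3 points labelled KO all lie above those labelled WT.

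Sparc and Sparcl1 made up most of the family's message per gene length. Of the summed FPKM of the 10 genes, Sparc took 45.4% ± 0.655 under the WT label and 35.9% ± 0.301 under the KO label (SD, n = 3 each). Sparcl1 took 40.3% ± 1.42 and 52.1% ± 0.343. The share of Tnxb was 1.38% ± 0.122 and 2.71% ± 0.0574, and that of Postn 2.26% ± 0.0953 and 1.31% ± 0.0830. The sum of CPM over the 10 genes was 597.8, 638.1 and 641.6 in the WT-labelled libraries and 436.2, 440.3 and 419.0 in the KO-labelled ones. This sum, which is not divided by gene length, was lower by a factor of 1.45. Most of it was Sparc, with mean CPM of 271.8 under the WT label and 151.4 under the KO label, and Sparcl1 (187.4 and 170.2). The mean of Tnxb went the other way, from 29.3 to 40.7. The factor therefore mainly reports Sparc and does not describe each gene.

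Other genes of the same protein families and roles were followed from lists chosen with earlier results of these data known. Among relatives of the 10 genes, 24 of 30 were tested, of which 15 were lower and 1 higher, with a median of -0.64. Over all genes tested 10.5% were lower and 11.5% higher, given as background. Thbs4, a thrombospondin of tendon and muscle, fell by 1.46, and Comp, the cartilage and tendon thrombospondin, fell by 3.75 on the log2 scale, while Thbs3 stood at 0.11 (adjusted p = 0.74, edgeR). Ccn2 (-2.27) and Ccn3 (-2.35), CCN-family matricellular proteins, were lower, and Edil3, an integrin ligand, stood at 0.32 (adjusted p = 0.89, edgeR). In the SPARC family, Fstl1 (-0.95), Smoc2 (-0.78) and Smoc1 (-0.49), named after their values were seen, were lower. Of the testican genes of that family, named likewise, Spock2 stood at 0.51 (adjusted p = 0.14, edgeR) and Spock3 at -0.95 (adjusted p = 0.51, edgeR), and Spock1 was not tested. The 1 relative that rose, also named after its value was seen, was Fbln2, which encodes fibulin-2, a binding partner of fibronectin. It had 30.5, 32.1 and 29.6 CPM in the WT-labelled libraries and 49.3, 50.1 and 47.6 in the KO-labelled ones (log2 fold change 0.67, adjusted p = 4.2e-05, edgeR). Like Tnxb, it had no value shared between the groups' ranges.

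Of 20 receptor genes 5 were lower, with a median of -0.24, beside 10.5% lower and 11.5% higher over all genes tested. The count lower was 3 without the first WT-labelled or the second KO-labelled library, and 1 in limma on unscaled FPKM, but 6 after median-ratio scaling and 4 after quantile normalization of FPKM. Higher receptors numbered 0 in edgeR and 1 at an unadjusted p of 0.05. DESeq2 called 1 higher and limma on unscaled FPKM 2, against 0 under either scaling. Itga8, the integrin subunit of smooth muscle and other mesenchymal cells that binds fibronectin and tenascin-C, fell from 9.74 ± 0.565 to 0.771 ± 0.379 CPM (SD, n = 3 each). Itgb1, the common beta subunit (-0.30), Itgb5 (-0.31) and Sdc4, a syndecan co-receptor for fibronectin (-0.41), fell by less. Itga4, an alpha subunit for fibronectin on leukocytes (-0.08), and Itgb3, the beta subunit of a vitronectin receptor (0.11), did not pass. The difference between the receptor list and the 10 genes was not tested.

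Of 14 tested assembly and matrix partners 9 were lower, with a median of -0.92, among them Col1a2 (-2.18) and Col1a1 (-2.10), the chains of type I collagen, and the proteoglycans Dcn (-1.69) and Bgn (-1.11). Col1a2, Col1a1 and Dcn also stand in the fibroblast marker list. Fbn1, the microfibril protein fibrillin-1 (-0.06), and Bmp1, a procollagen protease (-0.05), did not pass. Of 12 proteases that cut these glycoproteins 9 were lower, with a median of -0.999. They included the stromelysin Mmp3 (-2.27), Mmp2 (-0.90), Adamts5, which cuts versican (-0.95), and Adamts8 (-3.10), while Plau, the urokinase gene (-0.25), and Adamts4 (-1.04) did not pass. Neither list had a gene called higher by edgeR, DESeq2 or limma on FPKM, and the count higher at an unadjusted p of 0.05 was also 0. Over all genes tested edgeR called 10.5% lower and 11.5% higher.

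**Figure D4:**
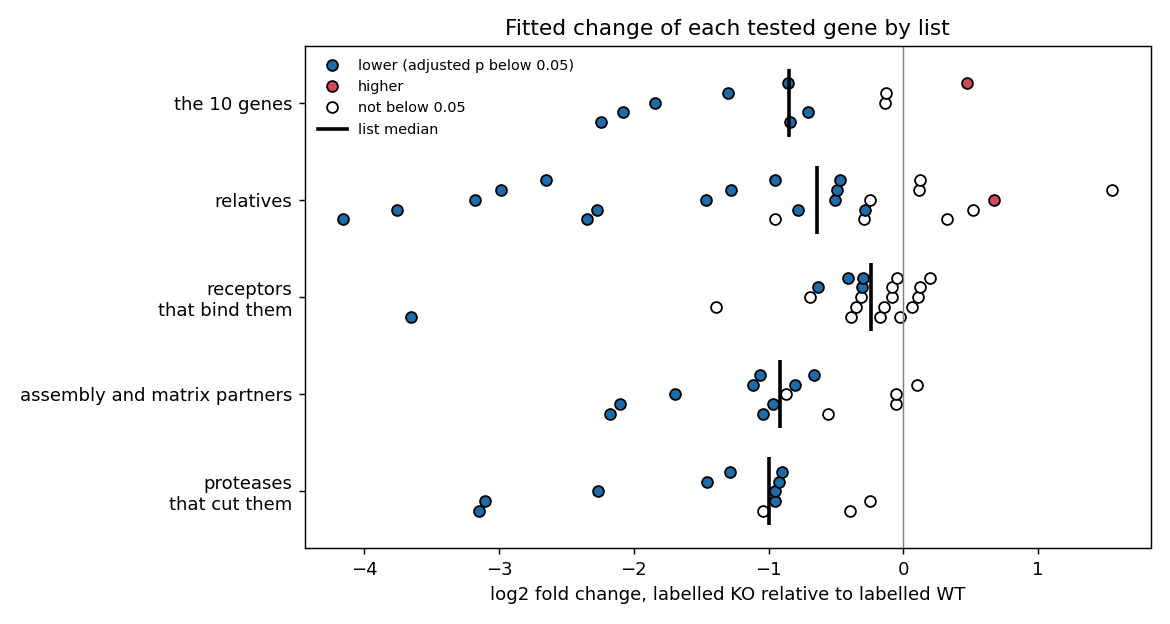
Fitted log2 fold change of each tested gene (x axis, libraries labelled KO relative to those labelled WT) in 5 lists, with the list median as a thick line. Medians are -0.85 for the 10 genes, -0.64 for relatives, -0.24 for receptors, -0.92 for partners and -0.999 for proteases, and filled points passed an adjusted p of 0.05.

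Marker lists of 11 cell types were followed beside the 10 genes, and several were lower while others were mixed, flat or higher. As background to their counts, 10.5% of all genes tested were lower and 11.5% higher. Of 10 fibroblast markers 9 were lower, and their summed level was 1116 to 1139 CPM in the WT-labelled libraries and 505.7 to 511.9 in the KO-labelled ones. Of 8 smooth muscle markers 7 were lower, from 543.3 to 550.6 down to 177.1 to 180.6 CPM, and Myocd, their master regulator, had no count under the KO label. The 10 tendon and cartilage markers fell from 82.4 to 82.5 down to 5.58 to 6.70 CPM, with 6 of 8 tested lower. Of these markers Kera was at 0 under the KO label. Acan was also at 0 there but was not tested, with 27, 19 and 0 counts in the WT-labelled libraries. Tnc, Postn, Thbs4 and Comp, all lower here, are known products of tendon, and Comp is itself one of these markers. Whether tendon also makes Tnxb, which rose, or Sparcl1, which did not pass, was not looked at here. Hepatocyte markers, which bear on Fn1 because liver makes plasma fibronectin, had 6 of 6 lower and fell from 87.0 to 89.7 down to 8.55 to 10.2 CPM. Schwann cell markers had 3 of 6 lower (41.2 to 53.5 against 27.5 to 28.8 CPM), and macrophage markers 4 of 7 (188.5 to 199.3 against 129.8 to 137.9 CPM).

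Endothelial markers had 3 of 8 lower and 2 higher, beside 10.5% and 11.5% of all genes tested. Their sums were 526.6 to 552.3 CPM under the WT label and 494.7 to 506.9 under the KO label. Adipocyte markers had 3 of 6 lower and 1 higher, with overlapping sums of 2218 to 2281 and 2125 to 2229 CPM. Skeletal muscle markers had 6 of 9 higher, at 19681 to 20175 and 26007 to 26868 CPM. Neutrophil markers had 4 of 5 higher, at 2.13 to 3.49 and 25.2 to 29.4 CPM, with Retnlg at 0 under the WT label. Retnlg, Myocd and Kera, each at 0 in 1 group, passed the low-count filter only through the other group. That fixed the direction of these genes in advance, although they are counted in their lists. The sum over the 10 glycoprotein genes, most of it Sparc and Sparcl1, fell by a factor of 1.45. The factors were 2.21 for fibroblast, 3.07 for smooth muscle and 13.6 for tendon and cartilage markers. The part of these cell types in the result was not tested. In bulk tissue, fewer cells of a type and less RNA per cell cannot be told apart.

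**Figure D5:**
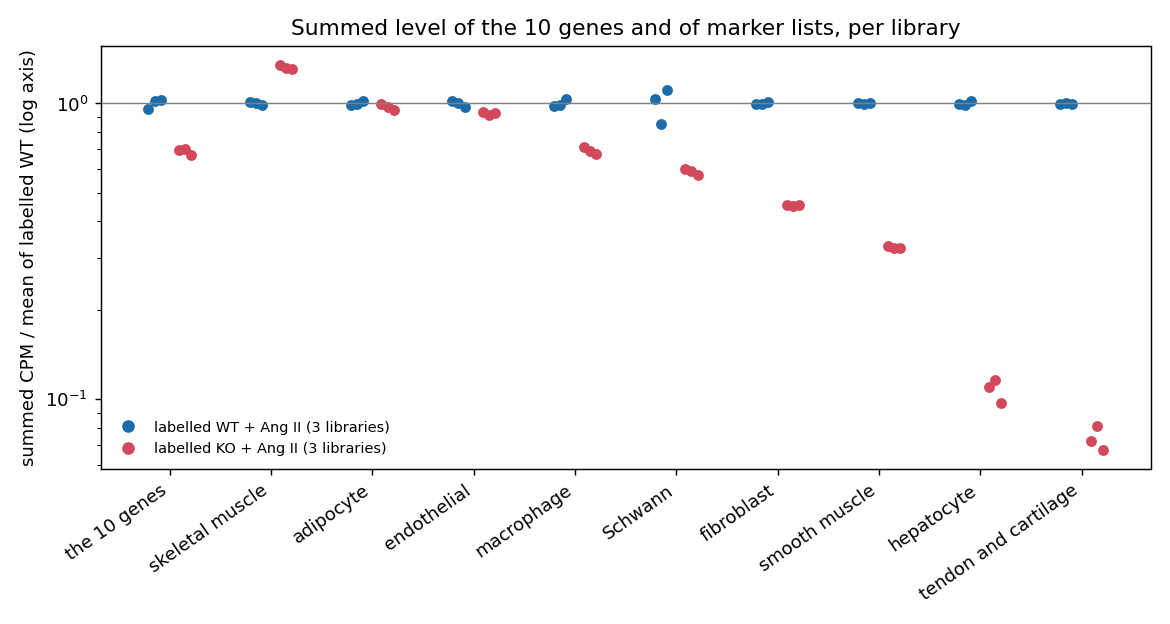
Summed CPM of the 10 genes and of 9 marker lists in each library, divided by the mean of the libraries labelled WT (y axis, log scale). KO-labelled libraries lie below WT-labelled ones for the 10 genes and for 7 marker lists, overlap with them for the adipocyte list and lie above them for the skeletal muscle list. The platelet and neutrophil lists are not drawn.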

How the data were processed

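Per the labels' protocols, poly(A) RNA was sequenced from both ends for 6 libraries labelled aorta, and the text also speaks of an adipose type. The authors deposited whole-number counts per gene and FPKM, per the file headers, and 0 columns belonged to other samples. Bowtie 0.12.2, HISAT2 2.0 and mm8 are named in the submitters' processing notes, with no role. The counting program and strand setting were not given in the sources used here. Coordinates in the table matched GENCODE M21 (GRCm38) exactly for 91.2% of 33815 shared genes, and that build is used.

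Counts were tested with edgeR 4.0.16 in R 4.3.3: filterByExpr, TMM scaling and a two-sided quasi-likelihood F-test on genotype alone. Benjamini-Hochberg adjustment covered 16620 genes, and an adjusted p of 0.05 was the threshold. SEs (log2 change over the root of F) and 95% intervals come from that F statistic. Low counts fell on multiples of 4 in 33.0% to 34.9% of values from 1 to 40, against 25% by chance. For part of the values, 1 read pair may thus add 4. Depth in independent fragments would then be below the totals. Ratios of 2 genes were compared by two-sided exact permutation tests. On simulated counts for 16013 genes of this comparison, 22 of 100 genes changed 1.5-fold and 58 of 100 changed 2-fold were recovered. There were 8 false calls. No other simulated gene was changed, while 10.5% of genes were lower and 11.5% higher in the data. Recovery in the data may therefore differ.

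Alternatives were DESeq2 1.42.0 and its size factors, other low-count filters, a replicate block, each library left out, mitochondrial genes left out, counts divided by 4, and limma 3.58.1 on log2(FPKM + 1) with another pseudocount (0.1), filter and scalings. The 10 genes and all lists were chosen with earlier results of these data known. Genes outside the 10 were named by rule: Otud1, and from each list up to 4 genes with the smallest p and the 2 with the largest, with the exceptions marked. Promoter sequences are RefSeq's (GRCm38.p6), and motifs were searched on both strands.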

Additional observations from a re-analysis of the deposited data

How the results depend on the processing

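The 8 genes called kept their direction and call in all 140 values from the 18 other fits, with adjusted p up to 0.048 for Tnc and Fn1 in limma on FPKM with no filter. Tnc and Vcan were not tested in the filtered FPKM fits. Thbs1 and Thbs2 passed that filter, set at 0.5, through the WT-labelled libraries alone. Their mean FPKM was 1.21 and 0.551 there, against 0.319 and 0.127 under the KO label. Their filtered FPKM values, counted among the 140, are thus not independent of the filter. With no filter on FPKM, Thbs1 stood at -0.74 and Thbs2 at -0.46 (adjusted p = 0.016 and 0.017, limma). Among the 10 genes 6 to 8 were lower and 1 was higher in each fit. Over all genes, 754 to 2576 were lower and 1465 to 2792 higher, of 11311 to 28428 tested.

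Sparcl1 passed with DESeq2 (-0.14), at a mean CPM of at least 1 (-0.16) and under quantile normalization of FPKM (-0.28), and ranged from -0.20 to -0.095 with single libraries left out. On deposited FPKM it stood at 0.014 at a pseudocount of 1, 0.015 at 0.1 and 0.014 with no filter. Vcan stood at 0.0050 there with no filter, and ran from -0.47 to 0.32 with single libraries left out. The mean difference in the log2 ratio of Thbs1 to Thbs2 was -0.13 on FPKM + 0.1 and ran from -0.13 to 0.56 with single libraries left out.

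All genes called lower numbered 912, 893 and 754 in limma on FPKM at a pseudocount of 1, at 0.1 and with no filter, all unscaled, against 1631 after median-ratio scaling and 1576 after quantile normalization. In the order of the unscaled fits, receptors called lower numbered 1, 1 and 1 and receptors called higher 2, 2 and 2, against 1 higher with DESeq2. Receptors called lower ran from 3 to 4 with single libraries left out. Relatives called lower numbered 9 on FPKM with no filter.

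The median of the relatives was -0.95 with no low-count filter and ran from -0.87 to -0.48 with single libraries left out. On FPKM it was -0.36 at a pseudocount of 1, -0.47 at 0.1, -0.15 with no filter, -0.49 under median-ratio scaling and -0.50 under quantiles. Medians of the receptors were -0.053 at a pseudocount of 1, -0.012 with no filter and -0.12 with quantile normalization. Those of the partners were -0.70 at 1 and -0.17 with no filter. Those of the proteases were -0.48 at 1, -0.74 at 0.1, -0.38 with no filter, -0.58 under median-ratio scaling and -0.56 under quantiles. Different genes enter each fit, and a pseudocount shrinks changes of low genes. The cause was not tested further.

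Same-numbered libraries deviated from their group means with correlations of 0.024, -0.0086 and 0.018, and the second library labelled WT correlated best with another number, so the numbers were not used as pairs. With a replicate block 7 of the 10 genes were lower and 1 higher, and 1552 and 1703 of all genes. Thbs2, Tnc and Vcan rest on few read pairs, which limits their precision.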
